A study of Mus musculus with 6 samples.

Results

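The latent TGF-beta binding proteins (LTBPs) and the fibrillins form a single family of large extracellular glycoproteins, here taken as Ltbp1, Ltbp2, Ltbp3, Ltbp4, Fbn1 and Fbn2 with the small microfibril protein gene Mfap2. These 7 genes, chosen by symbol, are a small set among the 34745 rows of the gene table, and they account for 8 rows because the symbol Ltbp4 stands on 2 of them. The libraries are total RNA of the left ventricle of wild-type male C57BL/6 mice, a common inbred strain, labelled as 8 weeks old. By its label, the TAC group had a transverse aortic constriction, a ligature around the aortic arch that raises the pressure load on the left ventricle. The Sham group, also by label, had a like operation in which nothing was tied, and both groups were sampled 6 weeks after surgery. Each group has 3 libraries. The labels do not say that each library came from its own mouse, so p-values measure the spread between libraries, which may be technical.

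Fibrillins polymerise into the beaded microfibrils of the extracellular matrix, which form a scaffold for elastin and a docking site for growth factors. Ltbp1, Ltbp3 and, more weakly, Ltbp4 encode proteins that bind the latent complex of TGF-beta covalently and place it in the matrix, whereas the Ltbp2 product binds fibrillin but not latent TGF-beta. TGF-beta released from such stores drives cardiac fibroblasts to make matrix, and in the heart these genes are expressed mainly by fibroblasts and other mesenchymal cells. The family was taken up with results of this TAC and Sham comparison already known, Ltbp2 and Ltbp3 having passed its test, so the differences below describe these libraries and are not independent evidence.

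Library totals over genes ran from 17399510 to 28401399 counts, and all 8 rows passed the filter on low counts. The atrial natriuretic peptide gene Nppa, which is known to rise in the pressure-loaded ventricle, had 83.9 ± 17 CPM (SD, n = 3; CPM is the count scaled to the library total with TMM factors) in TAC-labelled libraries and 1087 ± 704 in Sham-labelled ones. Acta1, another known hypertrophy gene, had 403 ± 263 CPM in TAC-labelled libraries and 3791 ± 1079 in Sham-labelled ones (SD, n = 3). Both directions go against the labels. Each direction below is therefore that of the labels alone, and libraries are written TAC-labelled and Sham-labelled. Values per library are in the order 1, 2, 3. Markers of ventricular cardiomyocytes were present throughout: 8 cardiomyocyte markers summed to 130191 to 155964 CPM in TAC-labelled libraries and 108336 to 125256 in Sham-labelled ones, with none at 0. 3 ventricular markers summed to 1767 to 2198 against 1528 to 1689 CPM.

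Promoters are shown for 4 of the 5 members whose groups did not overlap, to give the sequence around their start sites, and Ltbp4, with 3 windows, is not printed. RefSeq promoter windows on GRCm38.p6, 250 bases before to 50 after a start site, were used for 6 of the 7 genes, with 10 windows in all. Fbn2 was not included, so nothing is said of its promoter. Printed are Ltbp2 (minus strand, chr12:84876442-84876741), Ltbp3 (plus strand, chr19:5740650-5740949) and Fbn1 (minus strand, chr2:125506389-125506688), whose values were all lower in TAC-labelled libraries, and the upstream start of Ltbp1 (plus strand, chr17:75005279-75005578), whose values were all higher. Capitals mark matches on either strand to the GC box GGGCGG, the SMAD-type element CAGAC, the AP-1 site TGANTCA and the CCAAT box. The TATA box TATAAA, the TEAD site CATTCC and the CArG box were also searched on both strands, with no match in these 4 windows.
Ltbp2: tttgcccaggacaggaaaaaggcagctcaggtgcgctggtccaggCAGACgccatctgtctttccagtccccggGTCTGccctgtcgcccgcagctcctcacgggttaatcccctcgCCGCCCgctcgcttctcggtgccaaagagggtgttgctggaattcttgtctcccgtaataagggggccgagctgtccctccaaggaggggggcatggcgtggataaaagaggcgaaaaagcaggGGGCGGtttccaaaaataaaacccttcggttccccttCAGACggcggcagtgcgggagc
Ltbp3: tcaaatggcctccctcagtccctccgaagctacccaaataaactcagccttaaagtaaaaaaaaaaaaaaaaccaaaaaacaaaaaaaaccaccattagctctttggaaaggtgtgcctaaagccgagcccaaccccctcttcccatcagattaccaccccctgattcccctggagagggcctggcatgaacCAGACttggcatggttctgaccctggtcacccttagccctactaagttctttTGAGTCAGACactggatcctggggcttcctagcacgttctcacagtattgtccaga
Fbn1: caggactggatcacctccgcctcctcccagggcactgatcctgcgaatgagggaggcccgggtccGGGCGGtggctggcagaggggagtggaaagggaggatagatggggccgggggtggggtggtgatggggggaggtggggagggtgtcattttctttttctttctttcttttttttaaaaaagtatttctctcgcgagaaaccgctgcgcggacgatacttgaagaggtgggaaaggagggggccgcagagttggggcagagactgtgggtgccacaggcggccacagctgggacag
Ltbp1: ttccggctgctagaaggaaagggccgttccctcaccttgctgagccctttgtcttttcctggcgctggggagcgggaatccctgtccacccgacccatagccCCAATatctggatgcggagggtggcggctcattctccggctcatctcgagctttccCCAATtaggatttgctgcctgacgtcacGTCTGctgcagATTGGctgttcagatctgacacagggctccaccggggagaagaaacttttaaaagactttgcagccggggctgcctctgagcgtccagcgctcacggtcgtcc

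The Ltbp2 window held CAGAC or its complement 3 times, at positions -205, -176 and 29 from the start site, and the GC box at -133 and -9. The Ltbp3 window held CAGAC at -58 and -1, the second overlapping an AP-1 site at -6. The Fbn1 window held a GC box at -185, and that of Ltbp1 held the CCAAT box at -148, -92 and -53 and CAGAC at -64. Such matches are common: of 32851 promoter windows, 49.6% held CAGAC, 35.7% the GC box, 37.4% the CCAAT box and 7.81% the AP-1 site. The searched elements without a match were in 13.6% (TATA box), 14.7% (TEAD site) and 1.63% (CArG box) of windows. A match describes letters and does not show that a factor binds there.

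Ltbp2 was the member that differed most. Its FPKM, the authors' count per kilobase of gene length, scaled to the library total, was 0.790, 0.852 and 0.519 (TAC-labelled) against 10.9, 21.3 and 10.1 (Sham-labelled). The groups were far apart, and the library labelled Sham 2 stood above the other Sham-labelled libraries. Its counts were 231, 233 and 140 against 3061, 8228 and 2394. On the TMM-scaled level this was 10.05 ± 2.56 against 189 ± 88.4 CPM (SD, n = 3), 18.8-fold higher in the libraries labelled Sham (log2 difference, labelled TAC minus labelled Sham, -4.23, SE 0.37, adjusted p = 0.0114 in edgeR's quasi-likelihood test). Of the 15198 genes tested, 12 had a lower log2 difference. Without the library labelled TAC 1 the log2 difference was -4.32 and the adjusted p 0.0577, so the call was lost, and without each other library the call stood.

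**Figure D1:**
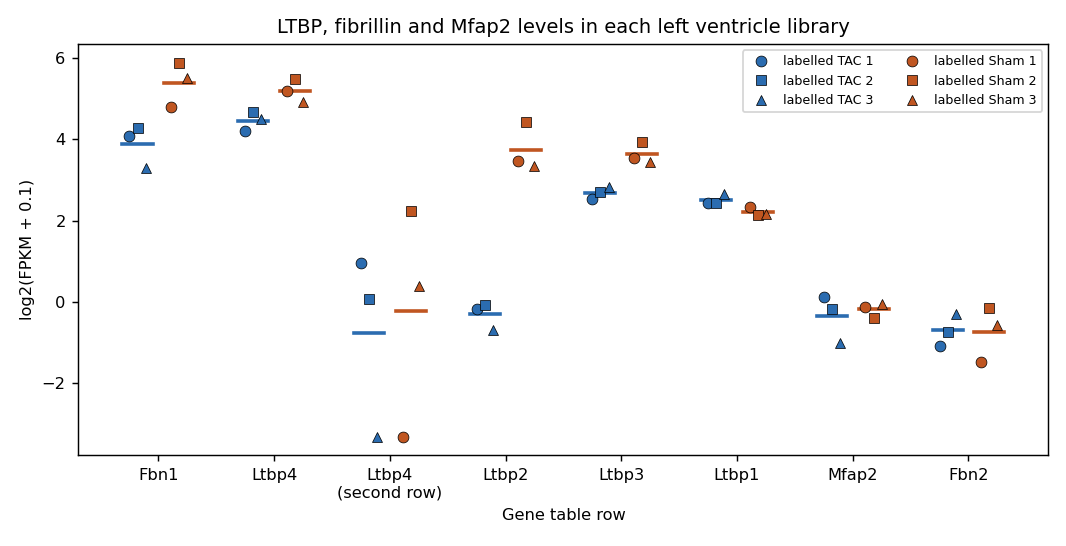
Level of each row in each library as log2(FPKM + 0.1), with blue points for libraries labelled TAC, orange points for those labelled Sham, a shape per library number and a bar at each group's mean of these log2 values. Ltbp2 shows the widest gap between the groups, from 0.519 to 0.852 FPKM against 10.1 to 21.3 FPKM, and the second Ltbp4 row lies at 0 in 1 library of each group.

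Ltbp3 encodes an LTBP best known for its role in bone and tooth. Its level was 5.65, 6.41 and 6.97 FPKM (TAC-labelled) against 11.5, 15.1 and 10.8 FPKM (Sham-labelled). The groups did not overlap, and the fitted difference was 1.89-fold (log2 difference -0.92, SE 0.17, edgeR adjusted p = 0.0480). This call sat at the threshold: leaving out any 1 library gave an adjusted p between 0.0517 and 0.148, while the log2 difference stayed between -1.03 and -0.73.

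Ltbp4 encodes the LTBP needed for elastic fibre assembly, where it works with fibulins. Its main row was the most abundant LTBP row in every library, at 18.5, 25.6 and 22.4 FPKM (TAC-labelled) against 36.3, 45.2 and 30 FPKM (Sham-labelled). All 3 Sham-labelled values lay above the TAC-labelled ones, but the difference did not pass (log2 difference -0.69, SE 0.19, edgeR adjusted p = 0.115).

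Ltbp1 encodes the first LTBP described and the classic carrier of latent TGF-beta. Its level was 5.29, 5.32 and 6.20 FPKM (TAC-labelled) against 4.91, 4.28 and 4.36 FPKM (Sham-labelled). It was the only member whose libraries labelled TAC all lay above those labelled Sham, and it did not pass (log2 difference 0.37, SE 0.11, edgeR adjusted p = 0.130). Its log2 difference stayed between 0.26 and 0.44 under every alternative run.

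Fbn1 encodes fibrillin-1, the main microfibril subunit of adult tissue, whose human counterpart is mutated in Marfan syndrome. Its level was 16.7, 19.4 and 9.67 FPKM (TAC-labelled) against 27.6, 59.2 and 45.5 FPKM (Sham-labelled). The groups did not overlap, and TAC 3 was the lowest and Sham 2 the highest library. In TMM-scaled counts it had 230 ± 77.5 against 635 ± 236 CPM (SD, n = 3), a 2.76-fold difference that did not pass (log2 difference -1.46, SE 0.34, edgeR adjusted p = 0.0778). It passed without the library labelled Sham 1 (log2 difference -1.71, adjusted p = 0.0468), with DESeq2 (adjusted p = 0.000264) and with no low-count filter (adjusted p = 0.0386).

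Fbn2, the fibrillin gene used mainly before birth, was low in both groups, with 0.373, 0.499 and 0.713 FPKM (TAC-labelled) against 0.259, 0.793 and 0.570 FPKM (Sham-labelled). Its counts of 56 to 236 overlapped between the groups (log2 difference 0.01, SE 0.40, edgeR adjusted p = 0.989), and the sign turned, among other settings, with library totals in place of TMM (-0.043) and without the library labelled TAC 3 (-0.25) or Sham 1 (-0.32). Mfap2 encodes MAGP-1, a small glycoprotein that coats microfibrils. It had 35, 26 and 13 counts (TAC-labelled) against 28, 31 and 25 (Sham-labelled). The 13 counts carry an exact Poisson interval of 6.92 to 22.2 (95%, counting error only). Its groups overlapped (log2 difference -0.04, SE 0.38, edgeR adjusted p = 0.970), and the sign turned without the library labelled TAC 3 (0.26), Sham 1 (0.0090) or Sham 3 (0.018). For these 2 genes a difference was not detectable at this depth and spread.

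Over the 7 genes, 4 were lower and 1 higher in TAC-labelled libraries with groups that did not overlap, and 2 overlapped. Among all genes tested 13.6% were lower and 13.4% higher in this way, 27.0% in all. The test called 2 of the 7, both lower in TAC-labelled libraries, against 1.11% of all genes called in that direction, 0.322% in the other and 1.43% in either. No member passed toward the TAC-labelled libraries with any alternative run, DESeq2 included, and Ltbp1 was the one member with an unadjusted p under 0.05 in that direction. The median log2 difference of the 7 was -0.69, beside 0.0075 for all genes tested. The family was chosen with these results in view, so nothing is read from these counts.

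**Figure D2:**
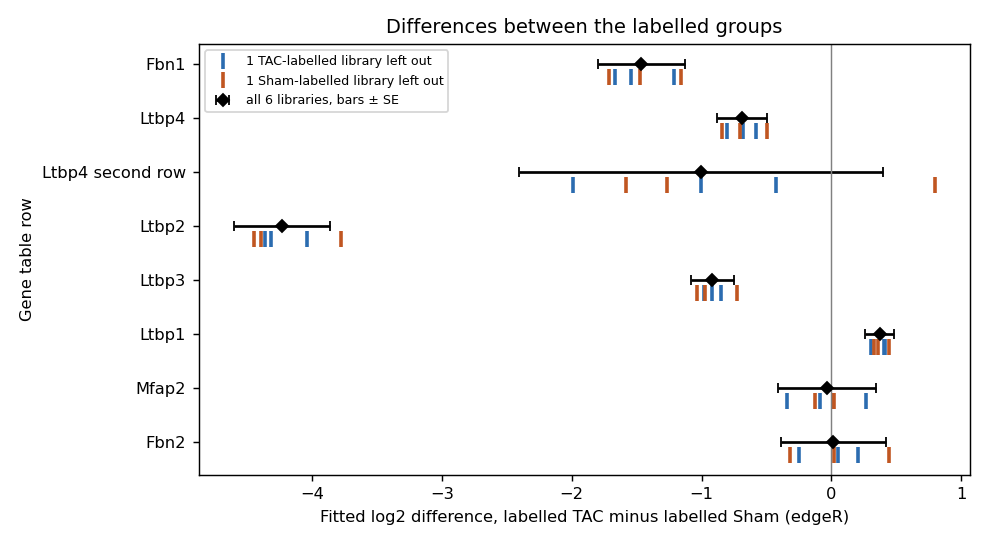
Fitted log2 difference, labelled TAC minus labelled Sham, for each row. Diamonds with bars give the estimate and its SE from all 6 libraries, and ticks below give the estimate with 1 library left out, in blue for TAC-labelled and orange for Sham-labelled ones. Ltbp2 stays between -4.44 and -3.78, Ltbp1 stays above 0, and Fbn2, Mfap2 and the second Ltbp4 row cross 0.

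The order of the levels per length also differed between the groups. This order rests on the fixed length that the authors' FPKM gives each gene, such as 14893 bases for Ltbp1 and 5190 for Ltbp3. An order by counts can differ. In all 3 libraries labelled TAC, Ltbp4 came first, then Fbn1, Ltbp3 and Ltbp1, and then Mfap2, Ltbp2 and Fbn2 below 1 FPKM in an order that changed between libraries. In the libraries labelled Sham, Fbn1 (44.1 ± 15.9 FPKM; SD, n = 3) and Ltbp4 (37.1 ± 7.65) led and overlapped. Ltbp2 (14.1 ± 6.24) and Ltbp3 (12.5 ± 2.34) followed and overlapped too. Ltbp1 (4.52 ± 0.339) came next, and Mfap2 (0.781 ± 0.109) and Fbn2 (0.541 ± 0.268) overlapped at the bottom. Ltbp2 thus stood among the 3 lowest members in each TAC-labelled library and beside Ltbp3 in the Sham-labelled ones.

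Ratios within a library do not depend on how libraries are scaled, but they do depend on the fixed length given to each gene. Ltbp2 made up 2.61%, 2.23% and 1.44% of the summed FPKM of the 4 LTBP genes (TAC-labelled) against 17.1%, 24.8% and 18.3% (Sham-labelled). The share of Ltbp1 went the other way, with 16.2% ± 1.98 in TAC-labelled libraries and 6.87% ± 1.63 in Sham-labelled ones (SD, n = 3). The share of Ltbp3 was 18.3% ± 1.32 against 18.4% ± 1.01, and that of Ltbp4 63.5% ± 3.18 against 54.7% ± 2.27. Ltbp2 had 0.131 ± 0.0414 times the FPKM of Ltbp1 in TAC-labelled libraries and 3.17 ± 1.56 times in Sham-labelled ones. The ratio of Fbn1 to Fbn2 was 32.4 ± 16.6 against 87 ± 17.2. These ratios come from the comparison through which the family was chosen and were not tested.

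**Figure D3:**
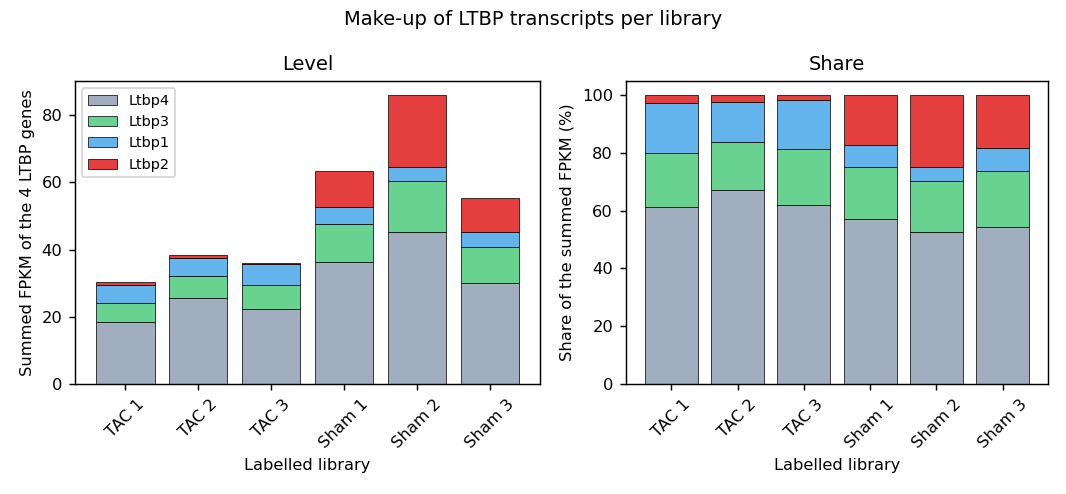
Summed FPKM of Ltbp1, Ltbp2, Ltbp3 and the main Ltbp4 row in each library (left axis plot, FPKM) and the share of each gene in that sum (right axis plot, percent). The sum runs from 30.2 to 38.2 FPKM in TAC-labelled libraries and from 55.2 to 85.9 FPKM in Sham-labelled ones, where the red Ltbp2 segment takes 17.1% to 24.8%.

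Most markers of fibroblasts were lower in TAC-labelled libraries, as were Ltbp2, Ltbp3, Ltbp4 and Fbn1. Ltbp1 went the other way (log2 difference 0.37), and Fbn2 (0.01) and Mfap2 (-0.04) hardly differed. The 8 general fibroblast markers summed to 1345 to 1773 CPM in TAC-labelled libraries and 2108 to 2771 in Sham-labelled ones, all 8 with a negative log2 difference and none at 0. Col1a2 passed in edgeR, 6 of the 8 had an unadjusted p under 0.05 and DESeq2 called 4. Among all 15198 genes tested in edgeR, 3178 had an unadjusted p under 0.05. DESeq2 called 707 genes toward the Sham-labelled libraries and 459 toward the TAC-labelled ones. The 7 activated fibroblast markers, which include periostin and thrombospondin-4, summed to 188 to 361 against 1103 to 2484 CPM, with 5 passing in the same direction. Of all 15198 genes tested, 7464 had a negative log2 difference and 1.11% passed in that direction. Of the 7, Acta2 alone had a positive log2 difference, and Cthrc1 was at 0 counts in TAC 3. Their part in the result was not tested, and in bulk tissue fewer cells of a type and less RNA per cell cannot be told apart. Set against the sum of the 8 general markers, Ltbp3 was at 2.18% ± 0.108 in TAC-labelled libraries and 2.57% ± 0.250 in Sham-labelled ones, and Ltbp4 at 14.3% ± 2.13 and 14.4% ± 1.46 (SD, n = 3). Fbn1 was at 15.3% ± 6.30 against 25.8% ± 8.50, with overlapping groups. Ltbp1 was at 5.53% ± 0.477 against 2.71% ± 0.343. Ltbp2 was at 0.668% ± 0.232 against 7.51% ± 2.59. On this scale the groups of Ltbp1, Ltbp2 and Ltbp3 did not overlap, and those of Ltbp4 did. The scale leans on Gsn and Dcn, the largest parts of the sum. Gsn had 720 ± 240 against 857 ± 150 CPM, with overlapping groups, and Dcn 410 ± 52.6 against 663 ± 111 CPM (SD, n = 3).

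Other cell types were measured by lists of markers. Smooth muscle and pericyte markers summed to 1605 to 2032 CPM in TAC-labelled libraries and 1409 to 1782 in Sham-labelled ones, endothelial markers to 886 to 963 against 791 to 950, and macrophage markers to 116 to 210 against 243 to 266. Mesothelial markers summed to 10.8 to 16.6 against 7.91 to 15.4 CPM, atrial markers to 0.773 to 43.9 against 1.94 to 46.1 and erythroid markers to 274 to 593 against 266 to 345. Neutrophil markers summed to 0.457 to 16 against 1.05 to 1.95 CPM, nerve markers to 5.50 to 7.69 against 3.50 to 6.19 and adipocyte markers to 0.0483 to 2.24 against 0 to 1.09. No gene of these lists, nor of the cardiomyocyte and ventricular ones, passed in edgeR, and no adipocyte marker entered the test. Among all 15198 genes tested in edgeR, 3178 had an unadjusted p under 0.05, and DESeq2 called 707 and 459 genes in the 2 directions. At that unadjusted level there were 5 cardiomyocyte, 4 smooth muscle and pericyte, 3 macrophage and 2 ventricular markers and 1 each of endothelium, mesothelium and nerve. DESeq2 called 3 cardiomyocyte, 3 smooth muscle and pericyte markers and 1 endothelial one. Their part in the results was not tested.

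For each member with groups apart, the genes with the most similar profile over the 6 libraries were listed. Likeness was the root mean square difference between log2(CPM + 0.5) profiles, each centred on its own mean, so a small value also needs a like size of change. Thbs4, the gene of the matricellular protein thrombospondin-4, was closest to Ltbp2 at 0.265. Cilp, a cartilage and scar matrix gene, stood at 0.347, Postn, the periostin gene, at 0.443 and Nppa at 0.489. These 4 passed the test with log2 differences of -4.63 to -3.45, as the ranking selects genes with a gap like that of Ltbp2. For Ltbp3 the closest genes were Sfxn3 (0.0955), the complement inhibitor gene Serping1 (0.116) and Tgfb3 (0.119). For Fbn1 they were Col1a1 (0.0902), Fstl1 (0.123) and Loxl2 (0.145), for Ltbp4 Naalad2 (0.0534), Gja4 (0.0864) and Pik3ip1 (0.0978), and for Ltbp1 Atp5b (0.0276), Mtx1 (0.0351) and Sdhb (0.0371). Atp5b and Sdhb encode subunits of mitochondrial energy enzymes. No gene named here was among those of more than 1 member, and each likeness spans the gap between the groups.

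**Figure D4:**
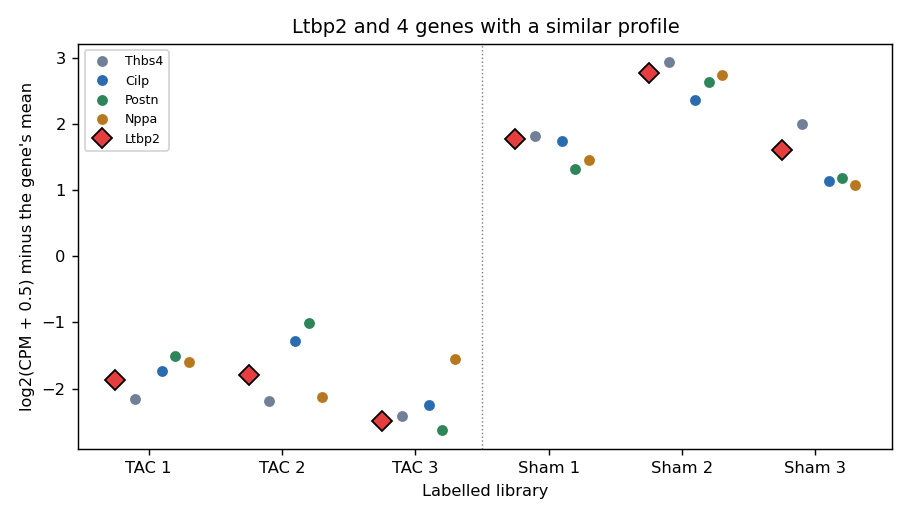
Centred log2(CPM + 0.5) of Ltbp2 (red diamonds) and 4 tested genes with a similar profile, by labelled library. All 5 genes lie below their own mean in the 3 libraries labelled TAC and above it in the 3 labelled Sham, and are highest in the library labelled Sham 2.

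Ligands and partners of the family were described from 6 lists of genes. The lists were chosen with earlier results of these data known, so nothing is read from their counts. Of all 15198 genes tested, 7464 had a negative log2 difference, and 1.11% passed toward the Sham-labelled libraries and 0.322% toward the TAC-labelled ones. Among TGF-beta ligands and the milieu molecules that hold them, all 5 genes had a negative log2 difference by estimate, with a median of -0.60, and Tgfb3 passed. Tgfb3, a ligand carried by LTBPs, had 23.3, 23.8 and 22.3 CPM (TAC-labelled) against 43.9, 49.7 and 37.7 CPM (Sham-labelled). These groups stood well apart (log2 difference -0.92, SE 0.13, edgeR adjusted p = 0.0285). Tgfb2 had 25.7, 17 and 17.7 against 41.5, 126.8 and 80.6 CPM and did not pass (log2 difference -2.04, SE 0.38, edgeR adjusted p = 0.0505), and Tgfb1 had a log2 difference of -0.60 (adjusted p = 0.192). Nrros, which holds latent TGF-beta on macrophages, had -0.40 (adjusted p = 0.329).

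Among 19 other microfibril and elastic fibre genes, 3 passed toward the Sham-labelled libraries and 1 toward the TAC-labelled ones, with a median log2 difference of -0.62. The shares over all genes tested were 1.11% and 0.322%. Lox, the lysyl oxidase that cross-links elastin and collagen, had 20.3, 22.1 and 13.6 CPM (TAC-labelled) against 53.9, 210.7 and 108 CPM (Sham-labelled) (log2 difference -2.73, SE 0.47, edgeR adjusted p = 0.0439). Mfap5, which encodes MAGP-2, the paralogue of the Mfap2 product, had 15.2, 25.6 and 14.3 CPM (TAC-labelled) against 53.6, 142.3 and 70.2 CPM (Sham-labelled). It passed (log2 difference -2.27, SE 0.39, edgeR adjusted p = 0.0448), while Mfap2, given above, had a log2 difference of -0.04. Mfap4, a fibrinogen-domain protein of elastic fibres, passed with a log2 difference of -2.07 (SE 0.33, edgeR adjusted p = 0.0385). Emilin2, an elastin-interface protein gene, went the other way with 37.6, 52.8 and 33.3 CPM (TAC-labelled) against 16, 13.2 and 20.8 CPM (Sham-labelled). It passed as well (log2 difference 1.31, SE 0.22, edgeR adjusted p = 0.0442).

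Of 11 ADAMTS and ADAMTS-like genes of microfibrils none passed in edgeR, 3 had an unadjusted p under 0.05 and DESeq2 called 2, and the median log2 difference was -0.14. Over all 15198 genes tested in edgeR, 3178 had an unadjusted p under 0.05, and DESeq2 called 707 and 459 genes in the 2 directions. Adamtsl2, whose product binds Ltbp1 and fibrillin-1, had a log2 difference of -1.70 (adjusted p = 0.0628) and Adamts6, a protease that acts on microfibrils, one of -0.89 (adjusted p = 0.0711). Adamts17 had 1.09 (adjusted p = 0.225) and Adamtsl4 0.25 (adjusted p = 0.240). Of 18 genes listed under activation of latent TGF-beta, none passed in edgeR either, 11 had an unadjusted p under 0.05 and DESeq2 called 4. The median log2 difference of the 18 was -0.39. Thbs1, the thrombospondin-1 gene, had -2.18 (adjusted p = 0.107), the gelatinase gene Mmp2 -1.20 (0.0588) and Itgb8, an integrin subunit that binds latent TGF-beta, -0.73 (0.0846). Itgb6, the integrin subunit with the same ligand in epithelia, had 33.8, 20.3 and 30.1 CPM (TAC-labelled) against 13.8, 6.57 and 14 CPM (Sham-labelled), with an edgeR adjusted p of 0.0857.

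Of 14 TGF-beta receptor and SMAD genes none passed in edgeR, 3 had an unadjusted p under 0.05 and DESeq2 called 2, and the median log2 difference was -0.056. Over all 15198 genes tested in edgeR, 3178 had an unadjusted p under 0.05, and DESeq2 called 707 and 459 genes in the 2 directions. Tgfbr1 had a log2 difference of -1.03 (adjusted p = 0.0932), Tgfbr2 of -0.61 (0.103), Acvrl1 of -0.38 (0.317) and Smurf1, a ubiquitin ligase of SMADs, of -0.33 (0.124). Of 14 known TGF-beta target genes 13 had a negative estimate, 4 passed, and the median was -1.40. Among all 15198 genes tested, 7464 had a negative estimate and 1.11% passed in that direction. The 4 were Postn (log2 difference -3.45, edgeR adjusted p = 0.0372), the connective tissue growth factor gene Ctgf (-2.77, 0.0480), the fibronectin gene Fn1 (-1.68, 0.0293) and Col1a2 (-1.47, 0.0459). The list shares Col1a1, Col1a2, Postn and Acta2 with the fibroblast marker lists above, so those marker sums are not separate measurements from it. Over the 6 lists together, leaving out any 1 library changed the number passing: 8 passed toward the Sham-labelled libraries with all 6 libraries, 17 without the library labelled Sham 1 and 0 without each of the other 5. 1 passed toward the TAC-labelled ones with all 6 libraries and 0 without any 1 of them.

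**Figure D5:**
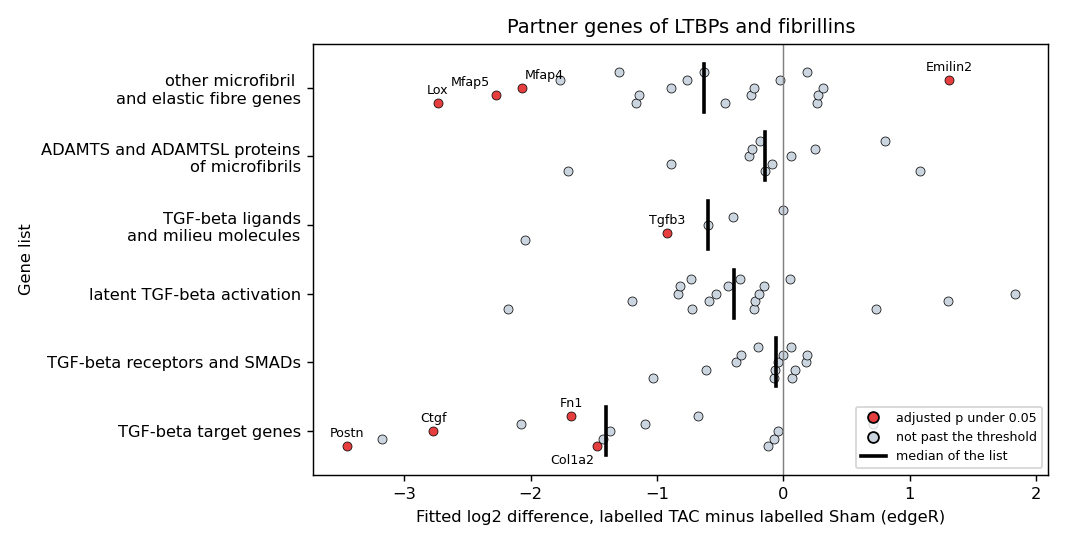
Fitted log2 difference, labelled TAC minus labelled Sham, of each tested gene of the 6 partner lists, 1 row of points per list. Red points passed an adjusted p of 0.05 and carry their symbol, and the vertical bar is the list median, which runs from -1.40 for TGF-beta targets to -0.056 for receptors and SMADs.

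Several members share their span with another annotated transcript. Ltbp2 lies on the minus strand of chromosome 12 at 84783212 to 84876532 (GRCm38), and the lncRNA gene D030025P21Rik (chromosome 12, 84875769 to 84878132), on the plus strand per RefSeq, overlaps its 5′ end by 764 bases. That gene had 0, 0 and 3 counts (TAC-labelled) against 5, 9 and 12 (Sham-labelled). Its scaled counts were 7.69 times as high in the libraries labelled Sham, with an exact 95% interval of 2.36 to 39.7 that covers counting error only. A count of 0 allows up to 3 counts, which is 0.145 CPM in TAC 1 and 0.153 CPM in TAC 2. Its low counts kept it out of the test, and because the strand setting of the counting is not given in any source used here, reads of both genes in the shared bases cannot be told apart. The lncRNA table holds NR_028577 (chromosome 12, 84875802 to 84879755), a longer model that RefSeq assigns to the same gene, with 4 counts in the 3 libraries labelled TAC and 39 in Sham-labelled ones.

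Ltbp4 stands in the table as a main row (chromosome 7, 27305136 to 27337692) and as a second row of its own identifier, ENSMUSG00000108715 (chromosome 7, 27311715 to 27333604), which lies inside the first. The second row had 137, 66 and 0 counts (TAC-labelled) against 0, 450 and 72 (Sham-labelled). It was at 0 in 1 library of each group and high in others, and its share of all Ltbp4 counts was 0% to 3.41% in TAC-labelled libraries and 0% to 3.47% in Sham-labelled ones. How reads were split between the rows is not stated in the labels or headers, so the second row is uncertain. Its log2 difference was -1.01 (SE 1.40, edgeR adjusted p = 0.731) and turned to 0.80 without the library labelled Sham 2. With both rows summed the log2 difference of Ltbp4 was -0.69 (adjusted p = 0.116).

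Ltbp3 lies at 5740904 to 5758532 on chromosome 19. Fbn1 (chromosome 2, 125300594 to 125507993) contains Gm9913, with 3 to 10 counts per library. It also contains 3 transcripts of the lncRNA table. The transcript n276344 had 1.39, 1.18 and 1.45 FPKM (TAC-labelled) against 1.89, 4.47 and 3.27 FPKM (Sham-labelled). These groups did not overlap, and those of the other 2 transcripts did. Among genes tested, 27.0% had groups that did not overlap. That share was not computed for lncRNA transcripts, so nothing is read from this count. Without strand, reads of Fbn1 and of these transcripts cannot be told apart. Ltbp1 lies at 75005568 to 75392512 on chromosome 17, Fbn2 at 58008623 to 58209926 on chromosome 18 and Mfap2 at 141010418 to 141015984 on chromosome 4. In the table's identifiers Ltbp1 is ENSMUSG00000001870, Ltbp2 ENSMUSG00000002020, Ltbp3 ENSMUSG00000024940, Ltbp4 ENSMUSG00000040488, Fbn1 ENSMUSG00000027204, Fbn2 ENSMUSG00000024598 and Mfap2 ENSMUSG00000060572.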

How the data were processed

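The deposited gene table gives each of 6 libraries 2 columns per the file headers, one of counts and one of FPKM, tied to groups through the description labels. The deposited count values are whole, and the authors' FPKM values divide each count by a fixed length per gene and by the library total of gene counts. The lncRNA table deposited by the authors gives the same 2 units per transcript, and its counts served only for transcripts over a member's span. HISAT2 2.0.4 and StringTie 1.3.0 appear in the submitters' processing notes together with GRCm38 (mm10). Their roles, the counter, the strand setting and filters are not given in any source used here.

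All genes were tested with edgeR 4.0.16 (quasi-likelihood, TMM, filterByExpr with a minimum count of 10, no block) in R 4.3.3, with Benjamini-Hochberg adjustment over 15198 genes and a threshold of 0.05. The SE was taken as |log2 difference| over the root of F. Alternatives were DESeq2 1.42.0, other scalings and filters, limma 3.58.1 on log2 FPKM (0.1, 1 or 0.01 added), a replicate block, each library left out and, chosen after seeing the data, summed Ltbp4 rows. In simulated data for this comparison (15198 genes, 5 draws of 200 changed genes) 2-fold changes were recovered in 43.6% of cases and 4-fold ones in 88.8%, with 8.18% false calls.

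The members, lists and rules were chosen with earlier results of these data known. Named genes are the members, in each partner list the up to 4 genes with the smallest p and all that passed where 5 or fewer did, and the genes with the closest profiles (5 for Ltbp2, 3 for others) with mean FPKM 1 or above and no predicted, Rik or clone symbols. No list was tested as a set. Motifs and the counts of overlapping transcripts were described, not tested. Some genes that meet these rules are not reported here.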

Additional observations from a re-analysis of the deposited data

How the results depend on the processing

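The log2 differences of Ltbp1, Ltbp2, Ltbp3, Ltbp4 and Fbn1 kept their sign under all 17 alternatives each. That of Ltbp2 ran from -4.44 to -3.06, the last with limma on log2(FPKM + 1), a scale that understates low genes, and its call was lost only without the library labelled TAC 1. Ltbp3 lost its call under 7 alternatives, the 6 that leave out 1 library and the replicate block (adjusted p = 0.107). Ltbp4 passed only with DESeq2 (adjusted p = 0.0227). Near 0, Fbn2 turned to -0.043 with library totals without TMM, -0.00055 without a low-count filter and -0.0025 with limma on log2(FPKM + 1). With 1 library left out it ran from -0.32 to 0.45, Mfap2 from -0.34 to 0.26 and the second Ltbp4 row from -1.99 to 0.80. Where a result moved and no construction is named here, the cause was not tested.

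The number of members called, 2 by the main test, was 4 with DESeq2, 1 with the replicate block and 0 to 2 with 1 library left out. Over all genes, 168 passed toward the libraries labelled Sham and 49 toward those labelled TAC. The counts were 707 and 459 with DESeq2, 321 and 111 without a low-count filter and 40 and 1 with the replicate block. Library totals without TMM gave 296 toward Sham, and limma on log2(FPKM + 0.01) gave 28 toward TAC. With 1 library left out they ran from 0 to 274 and from 0 to 123, both 0 in edgeR without the library labelled TAC 1, where 2564 genes had an unadjusted p under 0.05. Such fits hold fewer libraries. Of the partner genes, 8 and 1 passed. The counts were 27 and 3 with DESeq2, 17 and 2 without a low-count filter, 3 and 0 with the replicate block, 15 toward Sham without TMM and 0 toward TAC with limma on log2(FPKM + 0.01). With 1 library left out they ran from 0 to 17 and were 0 toward TAC. No partner or like-profile gene of the 28 named changed sign in any of 473 refits, and 65 of these refits lost a call and 20 gained one. Within-library ratios are equal from FPKM and from CPM per kilobase by construction, so that setting is no check of them.

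Whether equal replicate numbers pair the libraries is not known, as the labels do not say. The correlations of deviations from the group means were -0.12, -0.13 and -0.096 for numbers 1, 2 and 3. For each library the correlation with its own number was the lowest, and those of the other pairs ran from -0.0035 to 0.12. The cause was not tested. Such correlations over all genes cannot exclude a shared animal, litter or day. The few counts of Mfap2 and D030025P21Rik limit what can be said of them, and for the second Ltbp4 row the limit is the unknown split of reads between both rows.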

Other observations

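Ltbp1 and Fbn2 hold further transcripts of the lncRNA table over their spans, 6 over Ltbp1 and 8 over Fbn2. The transcript n275336 (chromosome 17, 75236175 to 75239648 on GRCm38), inside Ltbp1, had 0.683 ± 0.0213 FPKM in TAC-labelled and 0.580 ± 0.0803 FPKM in Sham-labelled libraries (SD, n = 3), from 36 to 60 counts a library. The transcript n283644, only partly inside Ltbp1, had 1.14 ± 0.107 against 0.901 ± 0.0214 FPKM. The groups of both did not overlap, and those of the other 4 transcripts over Ltbp1 did. The transcripts over Fbn2 had at most 29 counts in any library. Of these, n290055 had 5, 5 and 4 counts in TAC 1, 2 and 3 and 2, 4 and 0 in Sham 1, 2 and 3, and its FPKM did not overlap between the groups, being higher in TAC-labelled libraries. The other 7 overlapped, among them n270466, the most abundant, with 13, 8 and 29 counts in TAC 1, 2 and 3 and 2, 29 and 4 in Sham 1, 2 and 3. These transcripts were not tested, the share of all lncRNA transcripts with groups that do not overlap was not computed, and nothing is read from these counts. Without strand their reads cannot be told apart from those of the host gene.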
